A study of Mus musculus with 14 samples.

Results

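Nicotine given in the postnatal period was compared with saccharin, the control solution, by the level of H3K4me3 at promoter regions of the adult mouse cerebral cortex. The comparison used every row with values in the postnatal table: 14881 regions of 19203 rows, on build mm9, of which 14873 passed a filter on low values. The 8 libraries came from C57BL/6J mice aged 3 months: 4 libraries of mice that received nicotine postnatally only, and 4 of mice that received saccharin postnatally only. A separate table with values at the same 14881 regions held 3 nicotine and 3 saccharin libraries of mice exposed before and after birth. The treatment text is shared by all samples and describes delivery of either solution to pregnant mice, removal at day 21 and no further handling to day 90, so the postnatal-only course is known here from the group names. No dose is given in the labels, and they do not say that libraries are separate animals; p-values therefore measure the spread between these samples, which may be technical.

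H3K4me3 is the trimethylated form of lysine 4 of histone H3. It is deposited around transcription start sites by methyltransferase complexes of the COMPASS family, many of which are drawn to unmethylated CpG dinucleotides, and it is removed by demethylases of the KDM5 family. Promoters that are rich in CpG usually carry broad, strong H3K4me3, and very broad domains are known at genes that define a cell type. In this experiment the signal of a region is its read count after adjustment by the submitters, and it grows with both the width of the region and the density of the mark.

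The range of promoter types is shown by 4 genes described below, the CpG-richest and CpG-poorest among the 20 regions picked by width class, as far as a promoter window was found. The 250 bases before each start are printed from RefSeq (GRCm38.p6, minus strand in each case), 5′ to 3′, with CG dinucleotides in capitals. The Susd3 bases are chr13:49248295-49248544, those of Eef1a2 chr2:181157016-181157265, those of Tmem109 chr19:10881744-10881993, and those of Sinhcaf, the first of its 2 annotated starts, chr6:148946471-148946720.
Susd3: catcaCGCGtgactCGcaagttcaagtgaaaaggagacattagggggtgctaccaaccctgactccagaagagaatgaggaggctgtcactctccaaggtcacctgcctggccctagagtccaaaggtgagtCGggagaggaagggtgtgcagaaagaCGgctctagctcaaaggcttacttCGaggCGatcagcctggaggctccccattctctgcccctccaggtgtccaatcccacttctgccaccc
Eef1a2: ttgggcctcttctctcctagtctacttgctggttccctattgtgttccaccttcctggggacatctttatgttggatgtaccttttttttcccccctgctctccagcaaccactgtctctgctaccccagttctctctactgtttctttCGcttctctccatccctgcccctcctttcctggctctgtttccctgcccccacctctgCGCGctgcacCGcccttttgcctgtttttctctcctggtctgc
Tmem109: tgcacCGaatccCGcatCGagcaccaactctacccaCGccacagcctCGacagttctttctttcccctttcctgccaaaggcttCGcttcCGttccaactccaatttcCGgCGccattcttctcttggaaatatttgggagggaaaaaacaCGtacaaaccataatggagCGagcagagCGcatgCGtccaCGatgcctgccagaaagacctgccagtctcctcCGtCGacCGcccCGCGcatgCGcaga
Sinhcaf: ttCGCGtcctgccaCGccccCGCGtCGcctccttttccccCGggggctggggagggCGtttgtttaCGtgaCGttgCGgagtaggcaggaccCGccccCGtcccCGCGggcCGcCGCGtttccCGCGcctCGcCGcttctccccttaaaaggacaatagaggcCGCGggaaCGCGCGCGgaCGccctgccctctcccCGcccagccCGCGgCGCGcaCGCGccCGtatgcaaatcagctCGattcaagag
These bases hold 7 CG dinucleotides at Susd3, 4 at Eef1a2, 20 at Tmem109 and 38 at Sinhcaf. The ratio of observed to expected CpG over the same 250 bases was 0.347, 0.267, 1.10 and 1.23 in that order. The H3K4me3 regions of the same genes are on another build (mm9) and were not converted: Susd3 had a region of 943 bp, Eef1a2 of 3086 bp, Tmem109 of 1251 bp and Sinhcaf of 3006 bp. CpG content and width did not run in parallel in these examples, since Eef1a2 was CpG-poor and wide and Tmem109 CpG-rich and narrow.

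Libraries 1 and 2, and libraries 3 and 4, of each group were near copies. Treated as counts, the values within such a pair varied by 0.989 to 1.12 times what counting noise alone gives, and those of other pairings by 2.59 to 4.11 times. The near copies were therefore averaged, giving n = 2 nicotine and n = 2 saccharin samples. The 4 samples are called nicotine 1 and 2, nicotine 3 and 4, saccharin 1 and 2, and saccharin 3 and 4. Their summed signal ran from 2011059 to 2480402 adjusted reads, and raw depth is unknown. In 15 regions with a mean over 3000, 14 of them without a gene, the share of signal was 25.2% in nicotine 1 and 2 and 18.7% in saccharin 3 and 4, against 10.04% and 8.47% in nicotine 3 and 4 and saccharin 1 and 2. This split crossed treatment, and 881 regions (5.92%) differed between the high-share and low-share samples at an adjusted p under 0.05 in limma. The split was drawn from these same values, so that count describes it and does not test it. The labelled tissue was matched by its markers: all 4 cortex identity genes had a region, 0 of 4 hindbrain Hox genes had one, and 6 of 7 neuronal, 4 of 8 astrocyte, 8 of 10 oligodendrocyte, 2 of 8 microglial and 0 of 4 blood markers had one. Their summed signal overlapped between the groups for neurons (826 and 828 with nicotine, 879 and 802 with saccharin), astrocytes (498 and 536, 526 and 510) and microglia (17.9 and 29.1, 28.7 and 18.4). It also overlapped for interneurons (162 and 189, 156 and 163), endothelial and mural cells (218 and 234, 203 and 239) and choroid plexus (58.1 and 50.4, 52.9 and 52.5). The interneuron markers Gad1, Pvalb, Sst and Vip had no region. The groups were apart for 3 lists, beside 29.1% of all single regions. Excitatory neuron markers summed to 452 and 429 with nicotine and 462 and 491 with saccharin, cortex identity genes to 899 and 923 against 870.0 and 887, and oligodendrocyte markers to 687 and 666 against 655 and 643. Within the last list Ugt8a had 185 and 180.1 against 154 and 161, whereas Olig1 (129.8 and 133, 148 and 135) and Mbp lay lower with nicotine. The part of these marker levels in the results below was not tested. In tissue, fewer cells with a marked promoter and less mark per cell cannot be told apart.

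No single region reached the threshold: limma gave 0 calls among 14873 regions (0.0%) at an adjusted p under 0.05. Without adjustment, 143 regions (0.961%) were higher in nicotine and 138 (0.928%) lower at p under 0.05. Both nicotine samples lay above both saccharin samples at 2232 regions (15.0%) and below them at 2089 (14.0%). These counts became 1801 and 2555 when samples were scaled to the signal outside the strongest regions. The groups were thus apart at 29.1% of regions, whereas 4 samples in random order are apart, either way, in 0.333 of the orders. By themselves the counts therefore do not show a difference. For a typical region the unadjusted 95% interval spanned ± 0.39 log2 units, that is 1.31-fold each way. A call after adjustment over 14873 regions needs more than that. Differences well above 1.31-fold could therefore be missed too. With the split by high and low share added to the fit, 1064 regions (7.15%) had an unadjusted p under 0.05 and 9 an adjusted p under 0.05. The spread of 2 samples a group is the limit throughout, and differences below are log2 of signal plus 1, nicotine minus saccharin.

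The regions were 611 to 4705 bp wide, with a median of 1583 bp, and wider regions were stronger and more precisely measured. The 1496 regions under 1000 bp had a median signal of 11.3, or 12.8 per kb, and the 398 regions of 3000 bp and over had 306, or 91.5 per kb. The median 95% interval narrowed from ± 1.07 (2.11-fold) in the first to ± 0.24 (1.18-fold) in the second. Only large differences could therefore be seen at narrow promoters. At a mean signal of 200 to below 400 the median interval was ± 0.24 at 1000 to below 1500 bp and ± 0.23 at 3000 bp and over. Within that signal class the interval thus changed little with width.

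By width, the groups hardly differed in these samples. Among regions under 1000 bp the median signal was 12.6 and 9.62 in the nicotine samples and 9.80 and 13.1 in the saccharin samples, and the median difference was -0.0094. Here the samples sorted by their high or low share, not by treatment. At 1000 to below 1500 bp (5058 regions) the median difference was -0.038, with 42.9% of regions higher in nicotine. At 1500 to below 2000 bp (4672 regions) it was -0.0013, with 49.7% higher, and at 2000 to below 3000 bp (3249 regions) it was 0.019, with 56.8% higher. In regions of 3000 bp and over the 4 samples had medians of 304 and 309.8 with nicotine and 314 and 295 with saccharin, and the median difference was 0.016 with 56.0% higher. The nicotine samples thus lay between the saccharin samples for the broadest promoters. Under cyclic loess normalization, which removes any difference that follows signal level, the medians of the narrowest and broadest regions were 0.047 and -0.048. The contrast of the broadest with the narrowest regions was 4.48 and 4.87 in the nicotine samples and 4.86 and 4.39 in the saccharin samples (two-sided exact permutation test, p = 0.667; 4 samples cannot give less than 0.333).

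**Figure D1:**
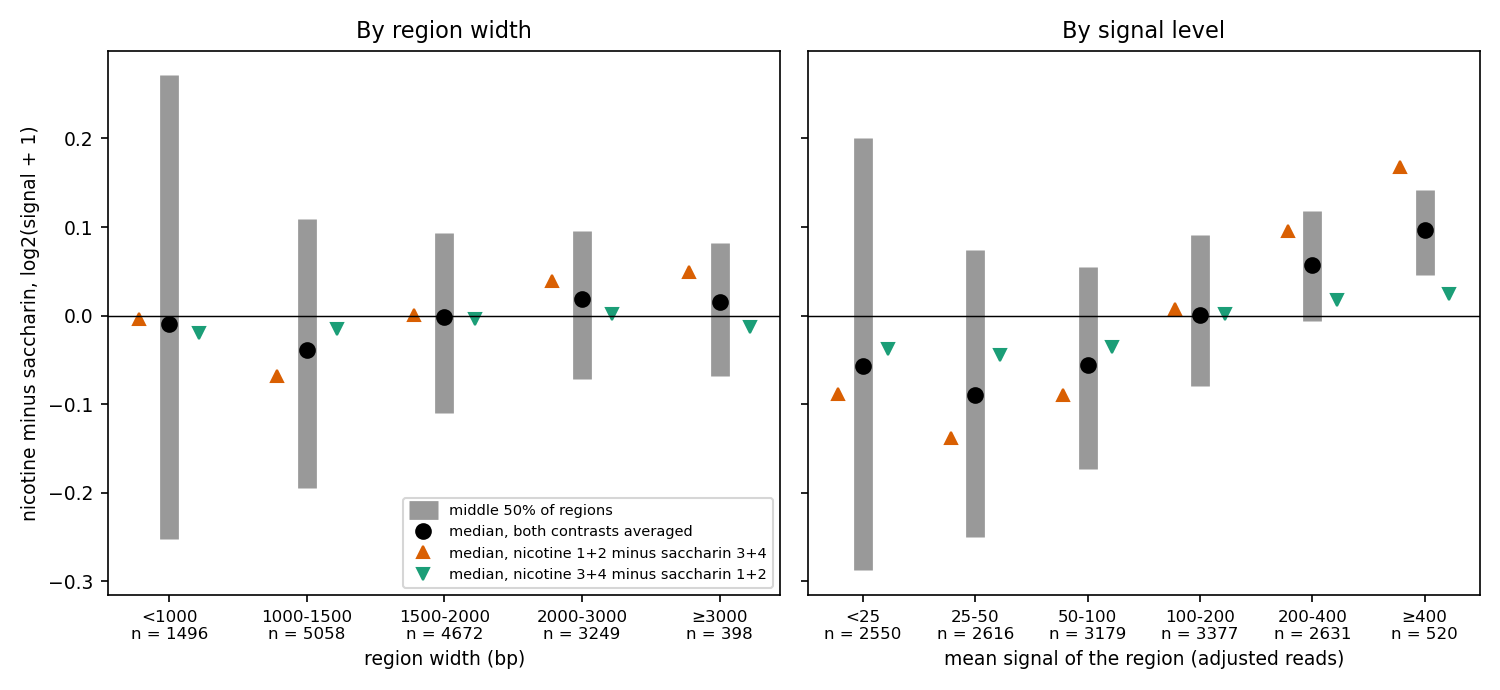
Nicotine minus saccharin difference in log2(signal + 1) by region width in bp (left) and by mean signal in adjusted reads (right); black points are medians over regions, grey bars the middle 50%, and triangles the medians of the difference within the high-share samples (up) and the low-share samples (down). The medians stay between -0.038 and 0.019 across widths and run from -0.089 to 0.097 across signal levels.

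Shares of the summed signal did not separate the groups either. Outside the 15 strongest regions, regions of 3000 bp and over held 7.14% and 7.29% of the signal in nicotine samples and 7.32% and 7.08% in saccharin samples. Regions under 1000 bp held 2.43% and 1.49% with nicotine and 1.46% and 2.12% with saccharin. The groups overlapped in all 5 width classes, with exact two-sided permutation p from 0.667 to 1.0.

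Within each width class the regions of lowest p in each direction are described with their values, 2 a direction; all had an adjusted p of 0.9998 in limma, so none is a call. Since they were picked for low p, their separation of the groups is a description. Under 1000 bp, Susd3, which encodes a membrane protein with a sushi domain, had 28.9 and 22.4 with nicotine and 11.3 and 11.7 with saccharin (difference 1.08 ± 0.41, SE; chromosome 13, 49342766 to 49343709). The averaged samples were apart, but at this low signal single libraries overlapped, with 16.4 in nicotine 4 and 18.1 in saccharin 4. Tagap1, a GTPase-activating protein gene, had 154 and 179.6 against 131 and 136 (0.31 ± 0.13). On the lower side Gpr137b, which encodes a lysosomal membrane protein, had 80.0 and 89.7 against 117 and 102 (-0.36 ± 0.16). H2ac4, a histone H2A gene, had 51.7 and 48.9 against 74.9 and 62.9 (-0.44 ± 0.21). Histone genes have near-identical copies, and how reads shared between copies were counted is not given in the sources used here, so the H2ac4 value is uncertain.

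At 1000 to below 1500 bp, Zc3h7a, a zinc finger protein that binds RNA, had 253 and 188 with nicotine and 137 and 171 with saccharin (0.51 ± 0.15, SE; chromosome 16, 11143691 to 11144744). Its nicotine samples differed from each other by nearly as much as the groups did. With the high or low share in the fit, Zc3h7a was among the 9 regions under 0.05 (adjusted p = 0.012 in limma). That fit leaves hardly any spread to measure at a single region, and the error is taken from a trend over all regions. The share was drawn from these same values and Zc3h7a was picked for low p, so this p is a description. Iars2, the mitochondrial isoleucine tRNA synthetase, had 213 and 244 against 181 and 160 (0.42 ± 0.12). Tmem109, a membrane protein with the CpG-rich promoter printed above, had 40.9 and 28.0 against 57.2 and 58.9 (-0.76 ± 0.27), and Plpp5, a phospholipid phosphatase, had 48.6 and 38.3 against 65.2 and 70.3 (-0.64 ± 0.23). In both, the saccharin samples were close together and the nicotine samples spread below them.

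At 1500 to below 2000 bp Rhou, a small GTPase, had 346 and 371 with nicotine and 289 and 263 with saccharin (0.38 ± 0.11). Tox3, an HMG-box factor, had 275 and 292 against 222 and 215 (0.37 ± 0.11; chromosome 8, 92871051 to 92872994). The 2 genes on the lower side were weaker. Tpd52l2, a protein of vesicle trafficking, had 75.7 and 73.6 against 104 and 109 (-0.51 ± 0.16). Adat3, a subunit of the enzyme that edits the wobble adenosine of tRNAs, had 40.6 and 34.4 against 58.6 and 59.4 (-0.64 ± 0.24).

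At 2000 to below 3000 bp Grin2d, an NMDA receptor subunit, had 119 and 144 with nicotine and 87.4 and 94.3 with saccharin (0.52 ± 0.15; chromosome 7, 53087776 to 53089916). A second Grin2d region of 1519 bp (53120969 to 53122488) had 156 and 133 against 112 and 114 (0.35 ± 0.14), so the nicotine samples lay above the saccharin samples at both regions of the gene. Dcaf10, an adaptor of ubiquitin ligases, had 326 and 321 against 268 and 235 (0.37 ± 0.11). On the lower side, Pced1a had 88.8 and 103 against 151 and 125 (-0.52 ± 0.15) and Fam13c had 90.4 and 71.1 against 115 and 112 (-0.50 ± 0.17).

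In the broadest class Ywhaz, the zeta form of the 14-3-3 adaptor proteins, had 659 and 687 with nicotine and 558 and 531 with saccharin (0.31 ± 0.11; chromosome 15, 36720814 to 36724648). Sinhcaf, a component of SIN3 histone deacetylase complexes, had 239 and 245 against 182 and 220.5 (0.27 ± 0.12). Cadm2, an adhesion molecule of neurons, had 181 and 173 against 222 and 233 (-0.36 ± 0.11; chromosome 16, 67617751 to 67621885), and the difference was -0.36 between the high-share samples and -0.35 between the low-share samples. Eef1a2, the elongation factor form of neurons and muscle, had 78.4 and 48.6 against 83.5 and 107 (-0.61 ± 0.22), so its nicotine samples reached nearly up to the saccharin samples. The 95% interval was ± 0.23 at Ywhaz and ± 0.24 at Cadm2 but ± 0.46 at Eef1a2. The differences at Ywhaz and Cadm2 exceed the spread within each group, which follows from choosing low p.

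**Figure D2:**
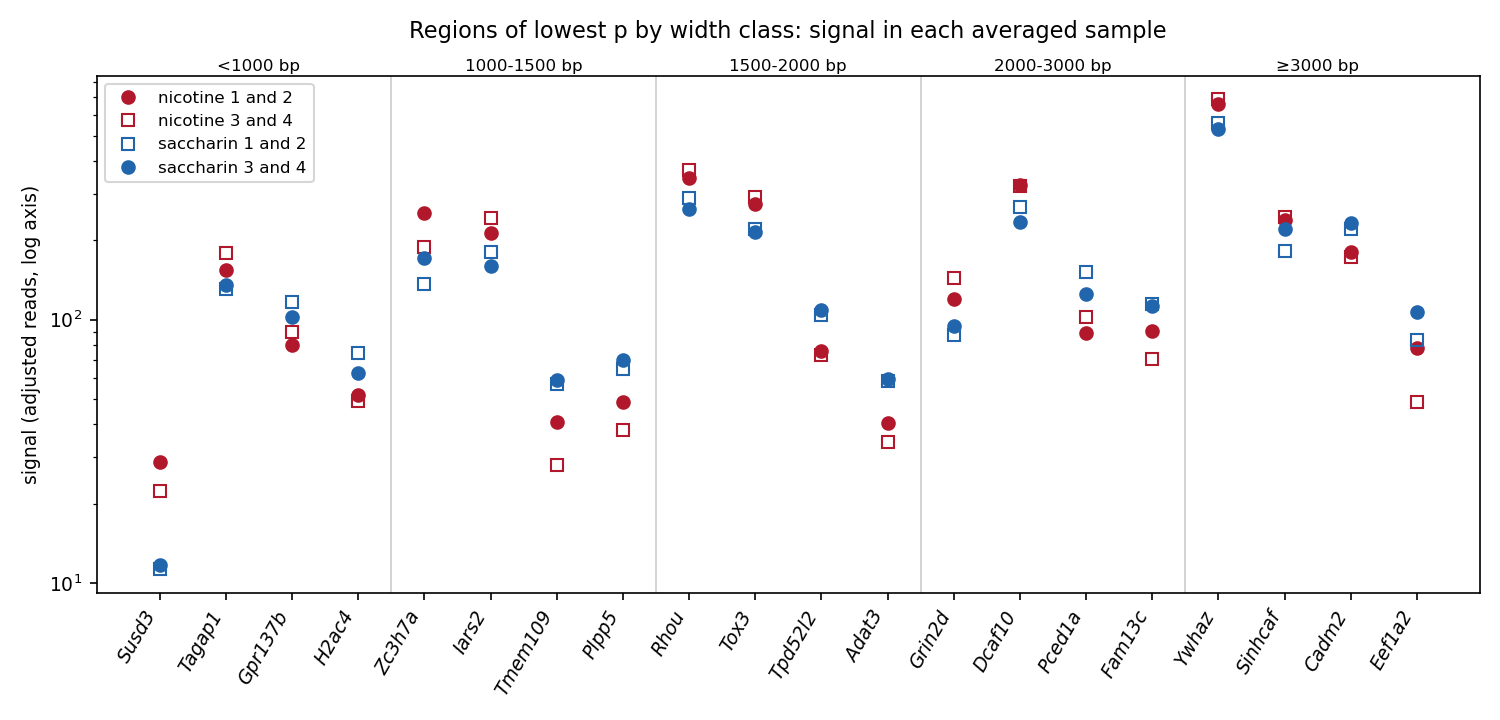
Signal in adjusted reads (log axis) of the 20 regions of lowest unadjusted p by width class, in each of the 4 averaged samples; red marks nicotine, blue saccharin, filled circles the high-share samples and open squares the low-share samples. Groups do not overlap at any of them, which follows from choosing low p; the gap is widest at Susd3 and narrow at Eef1a2 and Sinhcaf.

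The level of signal separated the regions more than width did. Among the 520 regions with a mean of 400 and over, 469 were higher in nicotine (90.2%) and the median difference was 0.097. Their median signal was 483 in both nicotine samples and 477 and 435 in the saccharin samples. For 200 to below 400 the median difference was 0.057 (72.7% of 2631 regions higher) and for 100 to below 200 it was 0.00088 (50.3% of 3377). Below that it was -0.056 for 50 to below 100, -0.089 for 25 to below 50 and -0.058 under 25, with 37.2%, 34.9% and 44.2% of regions higher. Regions of 25 to below 50 had medians of 37.1 and 32.6 with nicotine and 33.4 and 40.4 with saccharin, which overlap. In the strongest class both nicotine samples lay above both saccharin samples at 185 of 520 regions and below them at 7, beside 15.0% and 14.0% over all regions. Of these regions 18 were higher and 0 lower at an unadjusted p under 0.05, and none passed adjustment in limma.

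This gradient depended on single samples, saccharin 3 and 4 and nicotine 3 and 4. Taken as the deviation from each region's mean over the 4 samples, the strongest class had medians of 0.047 and 0.041 in the nicotine samples, 0.022 in saccharin 1 and 2 and -0.11 in saccharin 3 and 4. For 25 to below 50 the deviations were 0.042 and -0.12 with nicotine and -0.074 and 0.18 with saccharin. Without saccharin 3 and 4 the median difference was 0.023 in the strongest class, 0.036 at 25 to below 50 and 0.12 under 25, so the order from weak to strong regions was lost. Without nicotine 3 and 4 the order was lost too, with 0.093 in the strongest class, 0.0020 at 25 to below 50 and 0.12 under 25. Without saccharin 1 and 2 the medians of these classes were 0.16, -0.22 and -0.26, and without nicotine 1 and 2 they were 0.088, -0.17 and -0.21, so both kept strong regions above weak ones. The contrast of the strongest class with the class under 25 was 4.87 and 5.17 in the nicotine samples and 5.11 and 4.61 in the saccharin samples (exact two-sided permutation p = 0.667). Quantile and cyclic loess normalization bring the medians of the strongest class to 0.0 and 0.0026 by their construction.

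**Figure D3:**
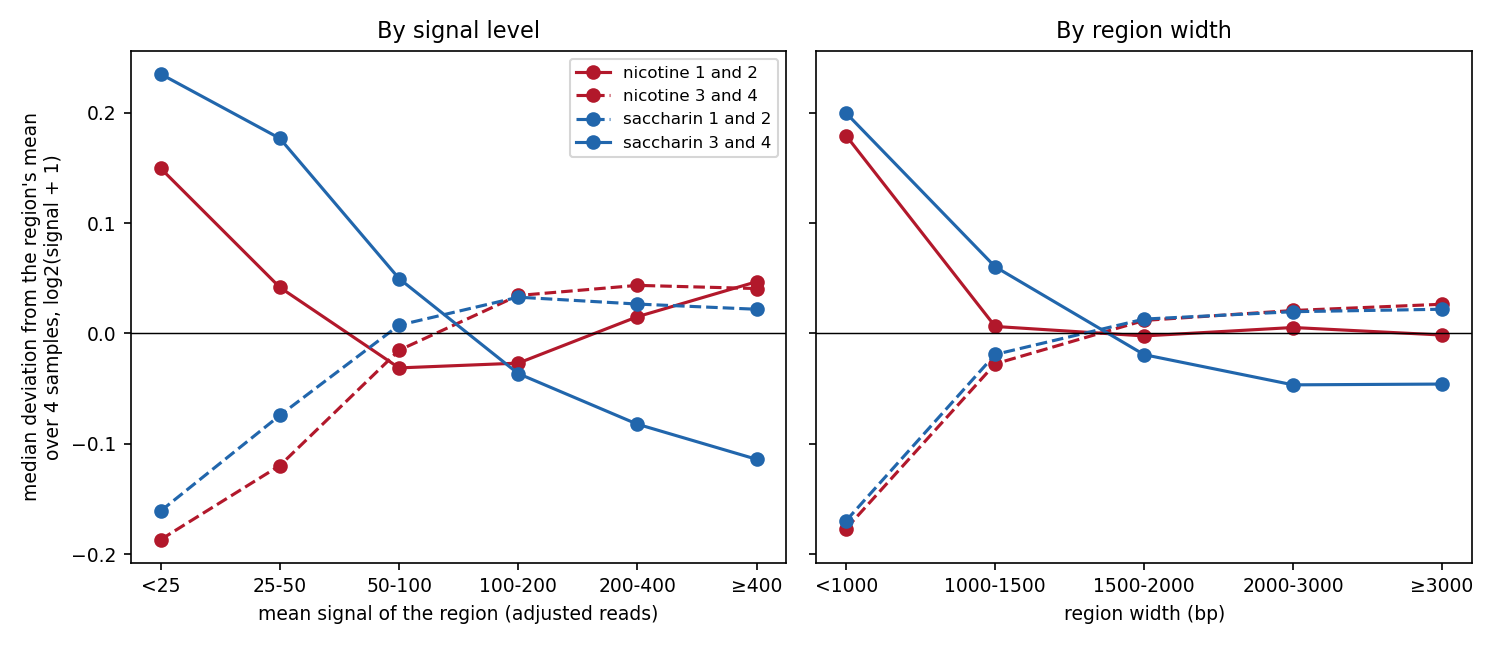
Median deviation of each averaged sample from the mean of the region over the 4 samples, in log2(signal + 1), by mean signal in adjusted reads (left) and by region width in bp (right); red lines are nicotine, blue lines saccharin, solid lines the high-share samples. Saccharin 3 and 4 falls from 0.24 in the weakest regions to -0.11 in the strongest, whereas both low-share samples run the other way.

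At a given signal level of 25 and over, wider regions had the lower median difference. For 25 to below 50 it ran from 0.023 under 1000 bp (141 regions) to -0.18 at 2000 to below 3000 bp (61). Among regions of 200 to below 400 the median difference was 0.11 at 1000 to below 1500 bp (111 regions), 0.071 at 1500 to below 2000 bp (980), 0.049 at 2000 to below 3000 bp (1361) and 0.0058 at 3000 bp and over (178). For 100 to below 200 it ran from 0.033 at 1000 to below 1500 bp to -0.071 at 3000 bp and over, and in the strongest class from 0.14 at 1500 to below 2000 bp (33 regions) to 0.069 at 3000 bp and over (124). The same order was kept in the 3 signal classes of 100 and over without saccharin 3 and 4, at smaller values: 0.039, 0.010, -0.0042 and -0.034 for 200 to below 400. It was kept under cyclic loess normalization too, from 0.067 to -0.050 in that class. At weaker signal the order was not kept without saccharin 3 and 4. For a mean of 50 to below 100 it reversed, from -0.12 under 1000 bp to 0.028 at 2000 to below 3000 bp. For 25 to below 50 the medians were 0.064, 0.026, 0.058 and 0.13 from narrow to wide. These are descriptions over regions that share 4 samples, with differences far under the interval of a single region.

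**Figure D4:**
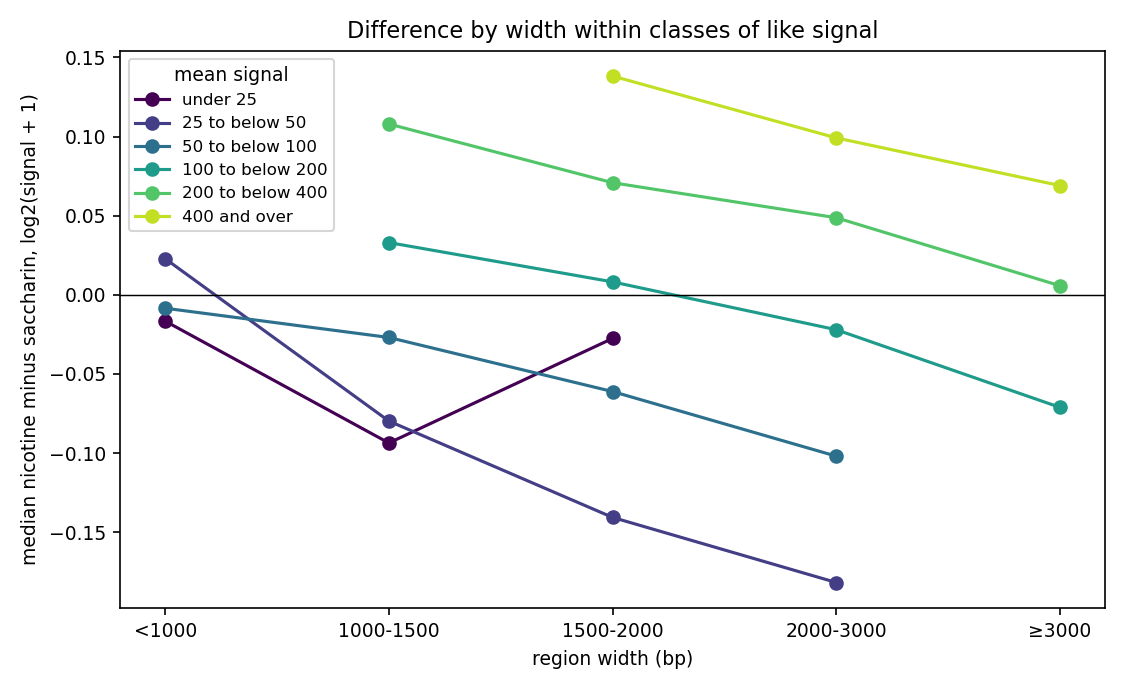
Median nicotine minus saccharin difference in log2(signal + 1) by region width in bp, 1 line for each class of mean signal in adjusted reads; points with fewer than 20 regions are left out. Lines for a mean of 25 and over fall from narrow to wide regions, and at 1000 to below 1500 bp the lines are stacked in order of signal.

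Signal per kb, the density of the mark, combines both readings. The densest 20% of regions (105 per kb and over) had a median difference of 0.071 with 78.4% higher in nicotine. The next lower classes of equal size had 0.0081, -0.042, -0.095 and -0.073. Without saccharin 3 and 4 the same 5 classes, from dense to sparse, had 0.012, -0.034, -0.047, 0.016 and 0.12.

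CpG content followed width and signal. Windows of 300 bases around the start were matched by gene for 8914 of 10917 matched regions outside chromosome 18 (81.7%), and a promoter was called CpG-rich at a ratio of at least 0.75 with at least 55% GC, and CpG-poor under 0.48. Of regions with such a window, CpG-rich promoters made up 22.6% of the 522 under 1000 bp and 65.6% of the 259 of 3000 bp and over, and CpG-poor promoters 36.8% and 8.49%. These are 522 of 1496 narrow regions and 259 of 398 broad ones. The 3954 CpG-rich promoters had a median signal of 79.5 per kb and the 1368 CpG-poor promoters 30.8 per kb. Their median differences between the groups were 0.017 and -0.032, with 55.3% and 44.1% of regions higher in nicotine, and -0.015 for the 3590 intermediate promoters. Signs of the rich and poor classes turned without saccharin 3 and 4 (-0.0043 and 0.013). The median of CpG-rich promoters was -0.010 once samples were scaled to the signal outside the strongest regions.

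Short sequence motifs were counted on both strands in the windows of 6581 genes with 1 annotated start, beside 22862 windows of all promoters. The TATA box letters TATAAA were in 6.99% of the measured promoters and 14.8% of all. They were in 4.92% of CpG-rich and 11.7% of CpG-poor measured promoters. The GC box letters GGGCGG, bound by SP factors, were in 69.3% of the measured promoters and 35.2% of all. The CCAAT box was in 39.1% and 38.2%, the ETS letters CCGGAAG in 17.5% and 9.12%, and the CRE letters TGACGTCA, bound by CREB, in 3.56% and 1.85%. Genes with a TATA box had a median difference of -0.022 against 0.00094 without, genes with a GC box 0.0071 against -0.024, and genes with a CRE -0.0075 against -0.00015. The sets also differed in signal: median signal was 75.7 with and 103 without a TATA box, and 119 with and 70.8 without a GC box.

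Gene classes differed far more in the shape of their H3K4me3 than between treatments. 1 region stood for each of 10542 genes, which had a median width of 1657 bp and 60.4 adjusted reads per kb. The H3K4 methyltransferase complex subunits had a median width of 2174 bp at 109 per kb, and splicing factors 1880 bp at 97.5 per kb. Activity-regulated genes, which neurons induce on firing, had wide but sparse regions, 2478 bp at 44.5 per kb. Developmental transcription factors such as the Hox, Lhx and Pax families, most of them silent in the adult cortex, had narrow and sparse regions, 1271 bp at 24.2 per kb. Respiratory chain subunits (1718 bp at 45.1 per kb) and mitochondrial ribosomal proteins (1443 bp at 42.0 per kb) lay below the median of all genes in density.

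Between treatments, the median of all genes was -0.00064, with 5248 higher and 5294 lower, and the nicotine samples lay wholly above at 1661 genes (15.8%) and wholly below at 1452 (13.8%). No member of any class passed the test. Class medians of the deposited values were not corrected for the signal level of their members. Of 32 classes with at least 5 genes, 15 had a median above 0. Scaling to the signal outside the strongest regions moved the median of all genes to -0.028 and the count to 8.

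Protein synthesis and energy classes had medians just below 0. Median signal was 88.9 for cytosolic ribosomal proteins, 83.8 for respiratory chain subunits, 76.9 for proteasome subunits and 62.2 for mitochondrial ribosomal proteins. All regions with a mean of 50 to below 100 had a median difference of -0.056, close to that of these classes. Cytosolic ribosomal proteins had a median of -0.065, with 26 of 68 genes higher and 42 lower. Rpsa, a protein of the small subunit, lay on the other side with 233 and 252 with nicotine and 187 and 203 with saccharin (0.32 ± 0.11, SE). Ribosomal protein genes have many processed copies in the genome. Respiratory chain subunits had a median of -0.052 with 20 of 62 higher; Cox5a, a subunit of cytochrome c oxidase and the strongest of the class, had 305 and 310.5 against 352 and 284, and Sdha, of succinate dehydrogenase, had 86.0 and 76.0 against 102 and 96.4 (-0.29 ± 0.16). Proteasome subunits (10 of 33 higher, median -0.061) and mitochondrial ribosomal proteins (20 of 55 higher, -0.058) were alike. Mrps30, of the mitochondrial ribosome, went the other way with 282 and 309 against 254 and 233 (0.28 ± 0.11). These 4 medians kept their sign under quantile, cyclic loess and outside-strongest scaling but shrank to -0.026, -0.027, -0.024 and -0.0035 with cyclic loess, in the order ribosomal, respiratory, proteasome, mitochondrial ribosomal. Without saccharin 3 and 4 they were -0.0064, -0.023, 0.0065 and -0.0088.

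The enzymes that write and erase the mark had medians above that of all genes. Median signal was 244 for the methyltransferase complex subunits and 204 for the demethylases. All regions with a mean of 200 to below 400 had a median difference of 0.057. Of 13 H3K4 methyltransferase complex subunits 9 were higher, with a median of 0.12, or 0.040 with cyclic loess and 0.049 without saccharin 3 and 4. Kmt2c, a catalytic subunit and the strongest of the class, had 563 and 627 with nicotine and 585 and 510.4 with saccharin, which overlap. Wdr5, a shared scaffold subunit, had 274 and 249 against 229.7 and 223 (0.20 ± 0.11), and Ash2l, another core subunit, had 191 and 203 against 163 and 189 (0.17 ± 0.12). The groups were apart on the higher side at 5 of the 13 and on the lower side at 1, beside 15.8% and 13.8% of all genes. All 6 H3K4 demethylases had a positive difference, with a median of 0.087 (0.068 with cyclic loess). Between the high-share samples their median was 0.15, and between the low-share samples it was 0.0036. Both contrasts had the same direction at 16.7% of the 6, beside 53.4% of all genes. At 0 of the 6 were the groups apart, beside 29.5% of all genes in either direction. Kdm5b, a demethylase of the KDM5 family, had 597 and 614 against 628 and 511; its difference of 0.096 turned to -0.011 with cyclic loess and to -0.052 without saccharin 3 and 4. Kdm2b, a CpG-binding protein, had 344 and 285 against 277 and 286. Other chromatin regulators had a median of 0.012 with 23 of 42 higher, which became -0.016 with scaling outside the strongest regions; Ep300, a histone acetyltransferase, had 458 and 446 against 388 and 398 (0.20 ± 0.10).

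Of nicotinic acetylcholine receptor subunits, the targets of nicotine, 6 had a region. The receptor of alpha4 and beta2 subunits is the main high-affinity form of the brain. Chrna4 had 91.5 and 96.9 with nicotine and 89.4 and 89.5 with saccharin, and Chrnb2 had 59.7 and 67.0 against 51.3 and 55.3. Both had their groups apart by small steps, with differences of 0.073 ± 0.16 and 0.24 ± 0.21 (SE). The groups were apart on the higher side at 3 of the 6 genes and on the lower side at 1, beside 15.8% and 13.8% of all genes. Chrna7, which forms receptors of its own, had the strongest region of the class with 129.6 and 116 against 139 and 107, and its groups overlapped. Chrna5 had 49.6 and 54.3 against 48.2 and 47.5, and Chrna3, its neighbour in one gene cluster, had 18.0 and 15.8 against 23.1 and 22.6 (-0.42 ± 0.38). Chrna10 lay near the floor of the data, between 3.60 and 6.40. None passed the test.

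Receptors of other transmitters mostly had medians below 0. Of 25 muscarinic, monoamine, opioid and cannabinoid receptors 10 were higher, with the lowest median of all classes of at least 5 genes (-0.13, and -0.093 with cyclic loess); without saccharin 3 and 4 it was 0.013. Chrm4, a muscarinic receptor, had 95.6 and 100.2 with nicotine and 106 and 131 with saccharin (-0.27 ± 0.15). Adra1d, an adrenergic receptor, had 181 and 187 against 151 and 152 (0.28 ± 0.12), with both samples of each group close together. Glutamate receptors had a median of -0.076 (8 of 21 higher; 0.052 without saccharin 3 and 4), among them Grm3, a metabotropic receptor, with 85.1 and 87.5 against 99.2 and 119.7 (-0.33 ± 0.16), and Grin2d with the opposite sign. GABA receptors had -0.056 (5 of 12 higher; 0.043 without saccharin 3 and 4).

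Synaptic and neuronal classes lay on both sides. Postsynaptic density and spine genes had 23 of 34 higher and a median of 0.049, which was 0.024 with cyclic loess, 0.022 with outside-strongest scaling and 0.035 without saccharin 3 and 4. Ppp1r9a, neurabin of dendritic spines, had 160.5 and 176 with nicotine and 135 and 132 with saccharin (0.33 ± 0.13), and Homer2, a scaffold of metabotropic receptors, had 195 and 183 against 161 and 152 (0.27 ± 0.12). Presynaptic release genes had 16 of 36 higher and a median of -0.026. Activity-regulated genes had 9 of 26 higher and a median of -0.085, or -0.071 with cyclic loess and -0.028 without saccharin 3 and 4. Nptx2, a neuronal pentraxin of excitatory synapses, had 91.4 and 88.0 against 106 and 123 (-0.34 ± 0.15), and Gadd45g, a stress and activity response gene, had 85.2 and 95.8 against 121 and 105 (-0.31 ± 0.16). Bdnf, a neurotrophin, had 60.1 and 62.2 against 69.3 and 80.0 (-0.28 ± 0.20). At Arc (131 and 144, 133 and 158) and Fos (66.6 and 71.5, 63.3 and 73.0) the groups overlapped, and Jund, the strongest of the class, had 555 and 601 against 545 and 495.

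Interneuron genes had 12 of 16 higher and a median of 0.044, or 0.10 with cyclic loess, 0.017 with outside-strongest scaling and 0.14 without saccharin 3 and 4. Their median was 0.010 between the high-share samples and 0.20 between the low-share samples. Satb1, a chromatin organizer of interneurons, had 344 and 371 with nicotine and 330.1 and 312 with saccharin (0.16 ± 0.11). Projection neuron and layer genes had 8 of 18 higher (-0.028, or -0.075 without saccharin 3 and 4), with Tle4, a corepressor of deep-layer neurons, at 312 and 288 against 258 and 256 (0.22 ± 0.11). Developmental transcription factors had 51 of 77 higher and a median of 0.078 (0.050 when the regions of a gene were summed, 0.020 without saccharin 3 and 4), at a median signal of 31.5 with an interval of ± 0.65. Foxd1, a forkhead factor, had 127 and 118 against 79.7 and 104 (0.43 ± 0.16), and Gbx2, a homeobox factor, had 28.3 and 21.4 against 42.6 and 40.7 (-0.73 ± 0.31).

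Imprinted genes, which are expressed from 1 parental allele, had 11 of 22 higher and a median of 0.028, or -0.026 without saccharin 3 and 4. Their groups were apart on the higher side at 6 genes and on the lower side at 0, beside 15.8% and 13.8% of all genes. The 6 were Cdkn1c, Ppp1r9a, Igf2, Nnat, Dlk1 and Peg3, named because the count is small and listed after the values were seen. Cdkn1c, an inhibitor of cyclin-dependent kinases, had 74.7 and 82.6 with nicotine and 54.3 and 50.3 with saccharin (0.58 ± 0.20). Igf2, a growth factor, had 40.0 and 36.4 against 28.8 and 29.9, and Dlk1, a Notch pathway ligand, had 29.7 and 28.7 against 24.8 and 25.4. Gnas, the strongest of the class, had 484 and 507 against 510.1 and 416, and overlapped.

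Counts in the other classes were as follows. Splicing factors had 30 of 50 higher with a median of 0.021, which turned to -0.014 with cyclic loess and -0.0062 with outside-strongest scaling. Axon guidance ligands and receptors had 29 of 56 higher (0.016, and -0.039 with cyclic loess). Rab GTPases of vesicle traffic had 23 of 45 higher (0.00065), solute carriers 102 of 197 (0.0039) and voltage-gated ion channels 25 of 50 (0.0018), and all 3 medians were below 0 with outside-strongest scaling. Without saccharin 3 and 4 they were -0.084, -0.011 and -0.078 in the same order. Translation factors had 21 of 45 higher (-0.0044), heat shock and DnaJ chaperones 19 of 44 (-0.040) and the Zfp zinc finger proteins 114 of 255 (-0.019, or 0.015 without saccharin 3 and 4). Astrocyte markers had 2 of 7 higher (-0.019), endothelial and mural markers 4 of 8 (0.043), and striatum and thalamus markers 4 of 10 (-0.012, or 0.014 with cyclic loess). Microglial and choroid plexus markers had 2 genes each, 1 on either side.

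**Figure D5:**
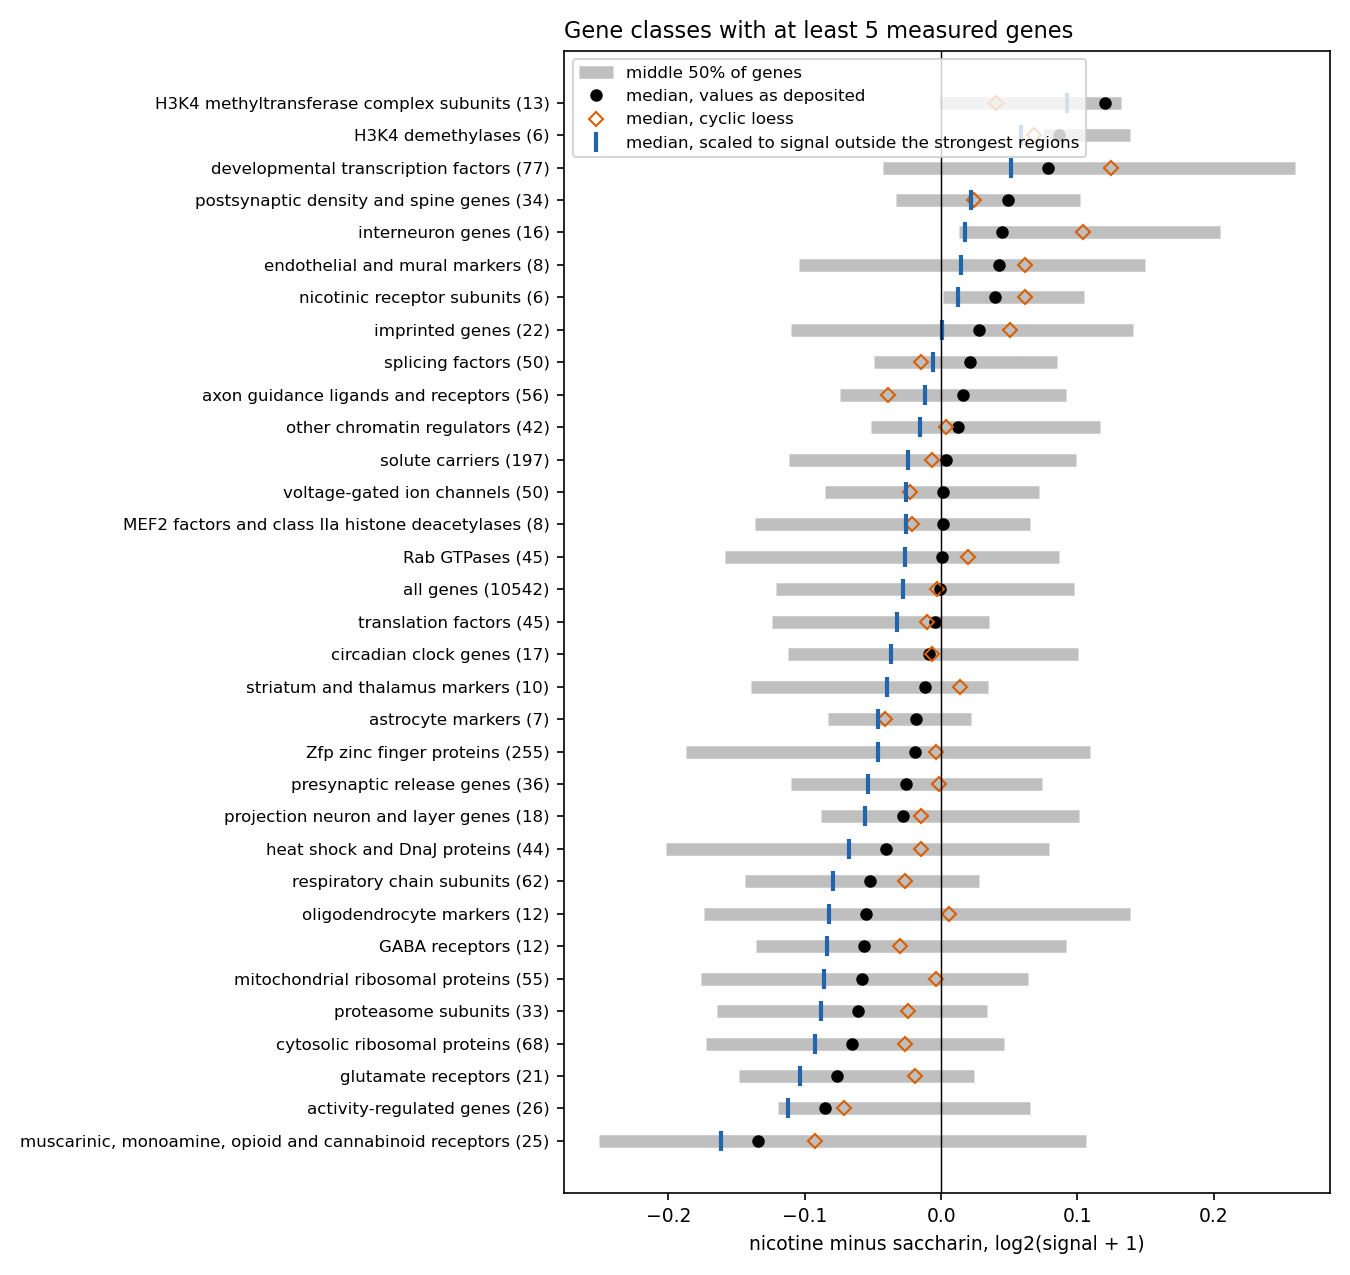
Median nicotine minus saccharin difference in log2(signal + 1) for gene classes with at least 5 genes (number in brackets), with the middle 50% of genes as grey bars, the values as deposited as black points, cyclic loess as orange diamonds and scaling to the signal outside the strongest regions as blue ticks. Medians lie between -0.13 and 0.12, and most grey bars cross 0.

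The same classes in the table of mice exposed before and after birth, with their own saccharin controls and a separate normalization, are given beside these without a test between the tables. There too limma called 0 regions at an adjusted p under 0.05, with 534 at an unadjusted p under 0.05. Regions under 1000 bp had a median difference of -0.23 there and -0.0094 after postnatal exposure, and regions of 3000 bp and over had 0.024 and 0.016. Regions with a mean signal of 400 and over had 0.050 there and 0.097 here. Respiratory chain subunits had 0.19 with 46 of 62 genes higher there, against -0.052 with 20 of 62 here. Developmental transcription factors had -0.33 with 19 of 77 higher there, against 0.078 with 51 of 77 here. H3K4 methyltransferase complex subunits had medians above 0 in both, 0.14 there and 0.12 here. Among single regions, picked here after their values were seen, Tmem109 (0.43 there, -0.76 here) and Tpd52l2 (0.43 and -0.51) had opposite signs, and H2ac4 (-0.44 in both) and Pced1a (-0.34 and -0.52) the same sign.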

How the data were processed

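Signal per region was measured by H3K4me3 ChIP-seq in 8 postnatal libraries. The deposited signal is, per the file headers and the submitters' processing notes, reads per region adjusted with edgeR on build mm9; the values are not whole, so no count model was used. Aligner, peak caller and versions: not given in the sources used here. Rows with empty values (4322) were left out. Without raw depth, counting intervals could not be made.

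Near-copy libraries were averaged. limma 3.58.1 (R 4.3.3) with trend was fitted to log2 of the signal plus 1 for regions reaching 1 in 2 or more samples (3 in the pre- and postnatal table). Tests were two-sided, with Benjamini-Hochberg adjusted p under 0.05. The fit was run on simulated data with an even relative spread and no high or low share split. That run checks the code and does not show how the fit performs on these data. Figures were drawn with matplotlib 3.10.9 (Python 3.11.15). For 11224 of 11388 regions with a gene (98.6%), the transcript was found in a RefSeq gene table (GRCm38.p6), used for names only; 1182 symbols were updated. In gene classes each gene was represented by its strongest region.

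The members, classes and gene lists were chosen with earlier results of these data known. Symbol patterns of gene classes were corrected for wrong members after reading the names. Named genes followed a rule: by width class and direction the 2 regions of lowest p with a non-predicted symbol, and by gene class the strongest member and the 2 of lowest p; other members are named as examples. A few genes the rule names are not reported here. The sequences shown are the 2 highest and 2 lowest in CpG ratio among the first set, outside chromosome 18. Same-numbered averaged samples deviated in opposite ways (r = -0.47 over 14164 regions), so the numbers do not pair the samples. Alternatives were another pseudocount, filter, scaling, samples as 8 libraries, blocks and leaving out each sample.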

Additional observations from a re-analysis of the deposited data

How the results depend on the processing

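The count of 0 regions with an adjusted p under 0.05 in limma became 1 with a replicate block, 9 with the high or low share as a term, and 17 and 11 with that term under quantile and cyclic loess normalization. Same-numbered samples deviated in opposite ways (r = -0.47), so the share term is also the crossed pairing. Its use as a pairing, and its fits under quantile and cyclic loess normalization, were added after the data were seen. Leaving out 1 averaged sample gave 0 to 31: 7 without nicotine 1 and 2 (all lower), 31 without nicotine 3 and 4 (all higher), and 0 without either saccharin sample. The count at an unadjusted p under 0.05 was 281, and 27 at 0.01; it was 138 with a replicate block, 1374 over 8 libraries, 1064 with the share term, 975 and 938 with that term and quantile or cyclic loess normalization, and 314 to 674 with 1 sample left out. Regions whose groups do not overlap were 4321, against 894 over 8 libraries; scaling to the signal outside the strongest regions split them into 1801 higher and 2555 lower, against 2232 and 2089.

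Under quantile and cyclic loess normalization the median difference became -0.052 and -0.048 at 3000 bp and over, 0.0 and 0.0026 at a mean of 400 and over, -0.0013 and -0.0027 at 50 to below 100, and -0.00089 and -0.0017 for CpG-intermediate promoters. Scaling outside the strongest regions gave -0.083 at 50 to below 100 and -0.043 for CpG-intermediate promoters, whose range without 1 sample was -0.020 to -0.0033 (-0.0054 without nicotine 3 and 4). It gave 8 gene classes with a median above 0, against 15. With 1 sample left out, medians ran from -0.19 to 0.18 under 1000 bp, from -0.018 to 0.060 at 3000 bp and over, from -0.26 to 0.12 under a mean of 25 and from 0.023 to 0.16 at 400 and over, and gene classes above 0 from 15 to 18.

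The 85 named regions with a difference were picked for lowest p in their class, so kept signs follow largely from that choice. Of them, 80 kept the sign in every alternative run. The others were Kdm5b (-0.011 with cyclic loess, -0.052 without saccharin 3 and 4), Irf8 (-0.012 without saccharin 1 and 2), Spi1 (0.36 without nicotine 1 and 2, 0.38 without saccharin 1 and 2), Kl (-0.063 without nicotine 1 and 2) and Clic6 (0.037 with quantile, 0.040 with cyclic loess, 0.090 without nicotine 1 and 2). Where a sample is left out, the lone sample of its group is assumed to vary like the others. The cause of these shifts was not tested.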

Other observations

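Regions without a gene were narrower and weaker than those with one, and differed as little. The 3487 regions with no gene in the table had a median width of 1374 bp and 32.9 adjusted reads per kb, with a median difference of -0.015, whereas 11111 regions at coding transcripts had 1629 bp, 56.5 per kb and -0.00052. The 275 regions at noncoding transcripts lay between them in density, with 42.4 per kb and a median difference of -0.024. Among the broadest regions, 71 of 3000 bp and over had no gene and a median signal of 332, and 327 with a gene had 302. Their median differences were 0.0059 and 0.017.

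By chromosome, median differences ran from -0.021 on chromosome 14 to 0.011 on chromosome 3. The 470 regions of the X chromosome, from which 1 copy is silenced in female cells, had 23.8 reads per kb against 50.8 for autosomes and a median difference of -0.0021. Genes of the clock had wide regions (median 2198 bp), led by Clock with 694 and 683 in nicotine samples and 663 and 587 in saccharin samples. Clock's own groups were apart by 0.14 ± 0.11 (SE), and 8 of 17 clock genes were higher. MEF2 factors and class IIa histone deacetylases had 4 of 8 higher (median 0.0015, or -0.022 with cyclic loess), with Mef2c at 67.3 and 36.7 against 59.2 and 85.9. Oligodendrocyte markers had 5 of 12 higher (median -0.055, or 0.0061 with cyclic loess), with Ugt8a, of myelin lipid synthesis, at 185 and 180.1 against 154 and 161 (0.21 ± 0.12) and Mbp, myelin basic protein, at 83.1 and 79.9 against 104 and 88.0. None passed the test.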
